A study of Mus musculus with 12 samples.

Results

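The 7 genes Lag3, Tigit, Havcr2, Klrg1, Cd160, Btla and Cd200 encode surface molecules that restrain T cells: 6 are inhibitory receptors of lymphocytes, and Cd200 is the ligand of an inhibitory receptor on other cells. Their regions of open chromatin were taken by position alone, as every region of the ATAC-seq table that overlaps the gene body extended by 20 kb on each side in mm9. This gave 84 of 118680 regions, with 15 at Lag3, 13 at Tigit, 8 at Havcr2, 16 at Klrg1, 7 at Cd160, 11 at Btla and 14 at Cd200. A region belongs to a gene here by distance only, since what a region regulates was not measured. Of the 84 regions, 38 overlapped the gene body, 23 lay upstream and 23 downstream. The start site of a gene is here the 5′ end of its annotated gene body. It was covered by 1 region at every gene but Cd160, where no region lay over it. Starts of other annotated transcripts of the genes lay in Cd160 OCR_73324, Lag3 OCR_96708 and Cd200 OCR_45844. A further 5 regions covered start sites of other genes, namely Cd4, Ptms and Mlf2 beside Lag3 and Med7 and 2310031A07Rik beside Havcr2.

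ATAC-seq reads mark DNA that Tn5 transposase could enter, so the read count of a region measures how open it was in the cell population. Regulatory T cells (Treg), the Foxp3-expressing CD4+ T cells that keep immune responses in check, were sorted as YFP+ cells from mice on the B6 background. The labels give spleen as their source, while the purification methods of the study name spleen and lymph nodes. All mice carried Foxp3-YFP-Cre, in which the Foxp3 gene drives Cre and YFP. WT mice carried nothing else, and Ikzf1-cko mice also carried a floxed Ikzf1 gene, which encodes the zinc finger factor Ikaros and is therefore deleted in cells that express Foxp3. Cells were used ex vivo or after 4 hr on plates coated with antibodies to CD3 and CD28 (1 ug/ml each), which engage the T cell receptor and its costimulatory partner. The methods say that the sorted cells were divided between these states. Which ex vivo and stimulated libraries share a sort is not given in the sources used here. The 4 groups, WT ex vivo, Ikzf1-cko ex vivo, WT stimulated and Ikzf1-cko stimulated, had 3 libraries of 100000 cells each. The age of the mice is given only for the matching expression experiment, 6 to 8 weeks.

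Inhibitory receptors are induced or raised when T cells are activated, and several carry cytoplasmic motifs that recruit phosphatases and blunt signals from the T cell receptor. Lag3 binds MHC class II, Tigit competes with the activating receptor Cd226 for Pvr and related nectins, and Havcr2 has several ligands, among them galectin-9 and Ceacam1. Klrg1 binds cadherins and marks strongly differentiated effector cells. Btla and Cd160 share the ligand Tnfrsf14. In Treg, several of these genes, Tigit, Lag3, Klrg1 and Havcr2 among them, are associated with activated or effector states and with suppressive function.

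Reference sequence is shown for 6 of the places on which the results turn. The first 3 were more open in Ikzf1-cko Treg in both states, the fourth was more open in Ikzf1-cko Treg after stimulation, the fifth closed on stimulation of WT Treg, and the last lies in front of the Lag3 start site, which opened on stimulation. They are given 5′ to 3′ in mm9. The first 5 are the middle 300 bases of their regions on the plus strand, namely chr16:43661688-43661987 for Tigit OCR_45690 in an intron, chr6:122243880-122244179 for Klrg1 OCR_96573 upstream of the gene, chr6:122220210-122220509 for Klrg1 OCR_96567 downstream of the gene, chr11:46287741-46288040 for Havcr2 OCR_17644 in an intron, and chr16:45261600-45261899 for Btla OCR_45818 downstream of the gene. The last is the 250 bases before the Lag3 start site on the minus strand, chr6:124861724-124861973. Capitals mark GGGAA, the core of the sequence that Ikaros proteins bind, or its complement TTCCC, and in the Havcr2 region TGACTCA, a match to the AP-1 motif TGANTCA.
Tigit OCR_45690: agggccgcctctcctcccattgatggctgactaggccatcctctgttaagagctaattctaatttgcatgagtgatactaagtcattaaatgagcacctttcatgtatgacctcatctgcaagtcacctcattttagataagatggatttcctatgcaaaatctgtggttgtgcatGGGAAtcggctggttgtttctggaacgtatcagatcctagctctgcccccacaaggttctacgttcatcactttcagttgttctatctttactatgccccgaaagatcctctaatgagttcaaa
Klrg1 OCR_96573: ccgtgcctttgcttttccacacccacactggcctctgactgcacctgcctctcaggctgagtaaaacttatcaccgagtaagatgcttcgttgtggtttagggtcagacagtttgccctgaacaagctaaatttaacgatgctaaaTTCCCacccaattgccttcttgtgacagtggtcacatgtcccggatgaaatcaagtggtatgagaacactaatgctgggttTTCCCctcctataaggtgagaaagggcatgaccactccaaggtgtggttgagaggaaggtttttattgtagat
Klrg1 OCR_96567: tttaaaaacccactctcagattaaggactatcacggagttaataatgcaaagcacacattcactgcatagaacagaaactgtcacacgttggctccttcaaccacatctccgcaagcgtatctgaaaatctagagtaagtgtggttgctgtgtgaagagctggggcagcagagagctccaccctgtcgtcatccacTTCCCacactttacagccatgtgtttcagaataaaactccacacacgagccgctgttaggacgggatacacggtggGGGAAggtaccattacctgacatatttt
Havcr2 OCR_17644: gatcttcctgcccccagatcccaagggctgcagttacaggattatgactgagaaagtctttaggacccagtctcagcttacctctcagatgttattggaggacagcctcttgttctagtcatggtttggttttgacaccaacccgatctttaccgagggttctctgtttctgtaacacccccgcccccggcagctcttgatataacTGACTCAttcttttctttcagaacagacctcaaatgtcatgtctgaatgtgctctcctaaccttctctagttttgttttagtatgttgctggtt
Btla OCR_45818: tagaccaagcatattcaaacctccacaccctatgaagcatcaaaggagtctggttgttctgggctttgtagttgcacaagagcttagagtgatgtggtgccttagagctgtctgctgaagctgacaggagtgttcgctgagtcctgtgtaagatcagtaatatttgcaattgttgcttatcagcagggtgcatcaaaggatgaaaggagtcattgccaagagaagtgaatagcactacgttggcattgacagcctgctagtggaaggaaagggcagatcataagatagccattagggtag
Lag3 before the start site: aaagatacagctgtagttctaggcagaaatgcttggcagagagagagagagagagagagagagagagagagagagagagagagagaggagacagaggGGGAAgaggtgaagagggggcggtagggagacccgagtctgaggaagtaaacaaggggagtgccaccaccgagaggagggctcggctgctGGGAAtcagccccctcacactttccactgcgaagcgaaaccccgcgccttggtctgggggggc

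The GGGAA core, counted on both strands, is short and was common everywhere: 63 of the 84 regions (75.0%) held it, against 70.8% of all 118480 regions on the reference chromosomes. GGAAA, the core bound by NFAT, was in 76.2% of the 84 regions and in 71.2% of all regions. TGANTCA was in 29 of the 84 regions (34.5%) and in 20.2% of all, and the forkhead motif GTAAACA in 11 (13.1%) and in 6.40% of all. GGGAA and GGAAA overlap where the letters GGGAAA occur. The 84 regions were also somewhat longer than the rest, with a median of 471 bases against 410. Among the regions printed above, Tigit OCR_45690 and both Klrg1 regions held 2 GGGAA each over their whole length, of which the stretch of OCR_45690 shows 1, and the core was in 71.0% of all regions within 10% of the length of OCR_45690. Btla OCR_45818 held no GGGAA, whereas 91.4% of regions of like length did. Havcr2 OCR_17644 held 1 TGANTCA, a motif present in 27.3% of regions of like length, and 1 GGGAA outside the stretch shown. The Lag3 start site region held 3 GGGAA, with at least 1 in 82.3% of regions of like length. A match or its absence describes these letters only.

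Counted reads ranged from 5197669 to 8596567 per library in WT ex vivo, 11698967 to 15355521 in Ikzf1-cko ex vivo, 4808916 to 6047073 in WT stimulated and 9221901 to 11465957 in Ikzf1-cko stimulated. Every Ikzf1-cko library was deeper than every WT library. With all libraries thinned to the smallest total, 5 regions of the 7 genes passed both thresholds ex vivo and 4 in stimulated cells, against 6 and 3 at full depth. The WT stimulated libraries stood apart: Spearman correlations between their libraries were 0.867 to 0.896, against 0.942 to 0.985 in the other groups, and the strongest 20% of regions held 56.9% to 59.1% of their reads against 63.3% to 68.8% elsewhere. Values after a loess normalization against abundance are therefore given beside many of the results that rest on this group. It removes fold changes that follow signal strength. As a check of the label, 1 of 28 tested regions over Ikzf1, OCR_16496, was lower ex vivo past both thresholds (6.80 to 8.78 FPKM in WT and 2.07 to 3.96 in Ikzf1-cko), 1 was higher, and in stimulated cells OCR_16496 differed by a log2 fold change of -0.50 (FDR = 0.12). Which part of Ikzf1 is floxed is not given in the sources used here, so this checks the label only in part. Regions covered the start sites of the Treg genes Foxp3 (group means of 10.2 to 14.6 FPKM), Ctla4 (28.4 to 63.2), Cd4 (18.1 to 21.7) and Il2ra (21.6 to 25.1), but not that of Ikzf2. No region covered the start sites of the B cell genes Ms4a1 and Cd79a, the myeloid genes Lyz2, Itgam and Csf1r, or the NK cell gene Ncr1.

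The level of a whole locus is given as FPKM, the reads summed over a gene's regions, per kilobase of region and scaled by the counted reads of the library. Regions and loci were tested by edgeR's quasi-likelihood test over all 12 libraries with Benjamini-Hochberg adjustment (FDR). Regions passed both thresholds when the FDR was under 0.05 and the log2 fold change exceeded 1 in either direction. Loci passed at an FDR under 0.05. In WT ex vivo Treg the order of the loci was Tigit (23.8 ± 0.83 FPKM, SD, n = 3), Btla (21.3 ± 1.5), Lag3 (19.1 ± 0.78), Havcr2 (15.1 ± 0.62), Cd200 (13.2 ± 1.31), Klrg1 (11.2 ± 0.32) and Cd160 (10.6 ± 0.47), and Klrg1 and Cd160 were the only neighbours whose libraries overlapped. In Ikzf1-cko ex vivo Treg, Klrg1 moved ahead of Cd200 and Havcr2, at 16.7 ± 0.92 FPKM (SD, n = 3), although its libraries overlapped those of Havcr2. In WT stimulated Treg, Lag3 came first (20.5 ± 1.35) and stood apart from Tigit (15.9 ± 1.26), whereas in Ikzf1-cko stimulated Treg Lag3 (25.04 ± 0.86) and Tigit (24.1 ± 0.68) overlapped. Cd160 had the lowest mean in all 4 groups, although its libraries also overlapped those of Cd200 in WT stimulated Treg. Regions over other genes' start sites gave 49.0% to 57.8% of the Lag3 reads and 31.8% to 49.2% of the Havcr2 reads, so these 2 levels describe a neighbourhood as well as a gene. The reads behind a locus ranged from 151 to 461 per library at Cd160 and from 859 to 2917 at Lag3.

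**Figure D1:**
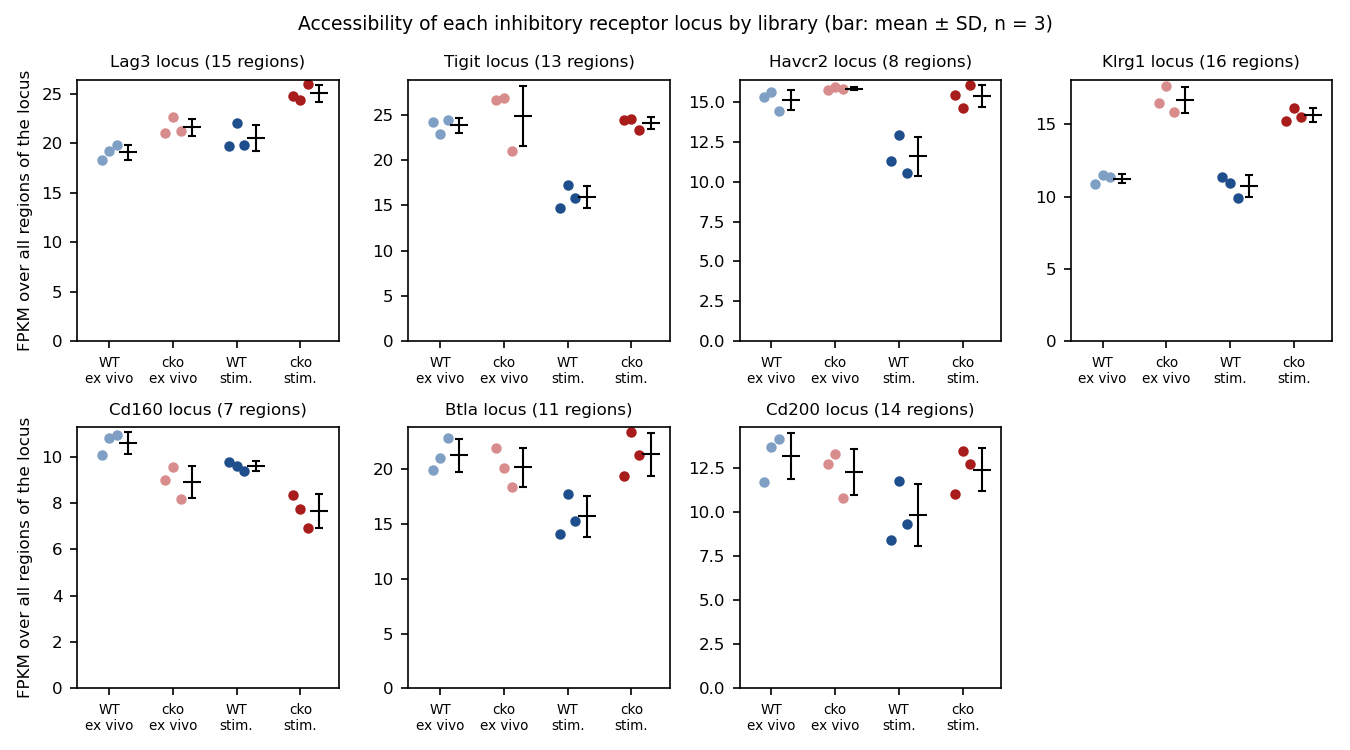
Locus level in FPKM (y axis, from 0) of each of the 7 genes in the 12 libraries (points) of the 4 groups (x axis), with the group mean ± SD (n = 3) as bars. The Klrg1 libraries of Ikzf1-cko lie above all WT libraries in both states, whereas the Tigit, Havcr2 and Btla libraries of WT stimulated Treg lie below those of the other 3 groups.

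Ex vivo, Klrg1 held most of the regions that passed both thresholds between the genotypes. Of the 64 regions that passed the filter on low counts, 6 were more open in Ikzf1-cko Treg past both thresholds and none were less open, against 4.63% of all 69957 regions tested in either direction. Of these, 5 lay at Klrg1 and the other in Tigit. At an FDR under 0.05 alone, 9 regions were higher and 5 lower (6 and 1 at Klrg1), against 8.78% and 12.7% of all regions, and the median log2 fold change of the 64 regions was 0.12, against -0.13 over all regions. That median was 0.12 in the strongest 20% of regions and -0.65 in the weakest 20%, which held 11 and 1 of the 64. The split between higher and lower depended on the scaling: it was 16 to 4 with TMM factors, which raised the median of all regions by 0.12 on the log2 scale, 8 to 1 with DESeq2 and 14 to 5 with loess normalization. The split over all regions moved too. Of all regions past that FDR, 40.8% were higher with library totals, 62.4% with TMM, 62.2% with DESeq2 and 49.6% with loess normalization. Among loci, Klrg1 and Lag3 were higher and Cd160 was lower (background 11.9% higher and 11.1% lower of 27532 loci), and Tigit, Havcr2, Btla and Cd200 did not pass. DESeq2 called 2 loci higher and none lower, and with loess normalization only Klrg1 passed (0.48 ± 0.06). Over all loci DESeq2 called 3154 higher and 2670 lower, and loess normalization gave 2092 and 2452.

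The Klrg1 locus stood at 10.9, 11.5 and 11.4 FPKM in the WT ex vivo libraries and at 16.5, 17.7 and 15.9 in the Ikzf1-cko ex vivo libraries, a log2 fold change of 0.57 ± 0.06 (SE, FDR = 2.7e-05). The size depended on the window, at 0.87 with 5 kb on each side of the gene and 0.27 with 50 kb. In stimulated cells it stood at 11.4, 10.9 and 9.93 FPKM in WT and at 15.2, 16.2 and 15.5 in Ikzf1-cko, a log2 fold change of 0.54 ± 0.06 (FDR = 7.5e-06). All 6 Ikzf1-cko libraries were thus above all 6 WT libraries, and stimulation itself changed the locus in neither genotype past the threshold (log2 fold change -0.07 in WT and -0.10 in Ikzf1-cko). The region over the start site, OCR_96569, held only 3.23 to 7.35 FPKM in any library and passed in no comparison, with a log2 fold change of 0.37 ± 0.28 ex vivo (FDR = 0.33), and 0.65 (FDR = 0.080) after loess normalization.

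The Klrg1 regions past both thresholds lay upstream and downstream of the gene. Upstream, the neighbours OCR_96573 and OCR_96574 lay 11.1 kb and 11.7 kb before the start site. OCR_96573 read 19.9, 22.7 and 23.1 FPKM in WT ex vivo, 39.2, 54.9 and 48.4 in Ikzf1-cko ex vivo, 27.3, 20.9 and 19.8 in WT stimulated and 41.0, 43.5 and 45.4 in Ikzf1-cko stimulated. It was higher in Ikzf1-cko without overlap in both states, by a log2 fold change of 1.1 ± 0.14 ex vivo (FDR = 7.1e-07) and 0.92 ± 0.15 in stimulated cells (FDR = 1.0e-05, and 0.72 after loess normalization). OCR_96574 followed it, with 17.8 ± 5.37 FPKM in WT ex vivo and 38.8 ± 6.71 in Ikzf1-cko ex vivo (SD, n = 3) and log2 fold changes of 1.07 ± 0.18 and 0.97 ± 0.20. The strongest region of the locus, OCR_96572 at 9.24 kb upstream, differed by 0.22 ± 0.10 ex vivo (FDR = 0.10) and by 0.53 ± 0.11 in stimulated cells (FDR = 0.00032, and 0.22 with FDR = 0.11 after loess normalization). Within the gene, the intronic OCR_96568, singled out after its values were seen, differed by 0.52 ± 0.20 ex vivo (FDR = 0.059) and by 0.53 ± 0.21 in stimulated cells (FDR = 0.033), and by 0.64 in both states after loess normalization (FDR = 0.024 and 0.020).

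Downstream of the last Klrg1 exon, OCR_96567, 12.5 kb from the start site, read 5.23, 7.21 and 9.25 FPKM in WT ex vivo and 18.5, 17.5 and 15.6 in Ikzf1-cko ex vivo. In stimulated cells it read 7.27, 7.64 and 2.18 in WT and 9.98, 14.5 and 15.9 in Ikzf1-cko. Both differences passed both thresholds, at a log2 fold change of 1.20 ± 0.23 ex vivo (FDR = 0.00027) and 1.20 ± 0.27 in stimulated cells (FDR = 0.00050). Another 2 regions passed both thresholds ex vivo but no threshold in stimulated cells. OCR_96565, 20 kb from the start site, read 6.63, 5.66 and 5.13 FPKM in WT ex vivo, 12.04, 13.6 and 11.7 in Ikzf1-cko ex vivo, 10.3, 9.58 and 8.60 in WT stimulated and 10.9, 10.7 and 11.7 in Ikzf1-cko stimulated. Here the WT libraries rose on stimulation to near the level of Ikzf1-cko, with a log2 fold change between genotypes of 1.12 ± 0.17 ex vivo and 0.22 ± 0.17 in stimulated cells, and the difference between these passed an FDR of 0.05 (interaction -0.90 ± 0.24, FDR = 0.020, and -0.95 after loess normalization). That call was lost without WT ex vivo replicate 3 (-0.81, FDR = 0.087) or WT stimulated replicate 1 (-0.84, FDR = 0.078).

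OCR_96570, 0.83 kb before the Klrg1 start site, read 4.69, 7.17 and 4.56 FPKM in WT ex vivo, 13.6, 12.5 and 11.5 in Ikzf1-cko ex vivo, 6.27, 10.4 and 6.75 in WT stimulated and 8.36, 8.95 and 8.03 in Ikzf1-cko stimulated. The genotypes were apart ex vivo (log2 fold change 1.18 ± 0.19, FDR = 3.8e-05) and overlapped in stimulated cells (0.11 ± 0.21, FDR = 0.67), where the Ikzf1-cko libraries had fallen (-0.57 ± 0.16, FDR = 0.010, and -0.51 with FDR = 0.058 without Ikzf1-cko ex vivo replicate 1). Its interaction of genotype and stimulation, -1.07 ± 0.29 (FDR = 0.018, and -1.09 after loess normalization), was the only one among the 64 regions past both thresholds, but it became -0.92 (FDR = 0.092) without WT ex vivo replicate 3, -0.81 (FDR = 0.087) without WT stimulated replicate 2 and -1.03 (FDR = 0.056) without Ikzf1-cko stimulated replicate 3. Over the whole locus, 12 of 13 tested Klrg1 regions had a positive log2 fold change ex vivo. The exception, OCR_96563 at the far downstream edge, named after its values were seen, read 5.06 ± 0.27 FPKM in Ikzf1-cko and 9.06 ± 2.98 in WT (log2 fold change -0.78 ± 0.24, FDR = 0.019). It lost its call with DESeq2 and without WT ex vivo replicate 1 (-0.57, FDR = 0.15) or 2 (-0.74, FDR = 0.084), or Ikzf1-cko ex vivo replicate 2 (-0.78, FDR = 0.054).

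Klrg1 is itself used to mark effector Treg, and fewer cells of a type and less open chromatin per cell cannot be told apart in bulk samples. By flow cytometry the study reported larger total and effector Treg pools in these mice. Over the start sites of the effector Treg genes (Prdm1, Icos, Tnfrsf9, Itgae and Ccr8 of 6, with none over Il10), the summed level overlapped ex vivo, 178 to 198 FPKM in WT and 171 to 203 in Ikzf1-cko. The sum joins genes that went opposite ways in Ikzf1-cko. Tnfrsf9 (0.31, FDR = 0.010) and Ccr8 (0.32, FDR = 0.10) were positive. Icos (-0.32, FDR = 0.069) and Prdm1 (-0.09, FDR = 0.46) were negative, and Itgae was too weak to be tested. Over whole windows, 16 of 64 effector regions were higher and 5 lower ex vivo, against 8.78% and 12.7% of all regions. The part of this shift in the Klrg1 result was not tested.

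**Figure D2:**
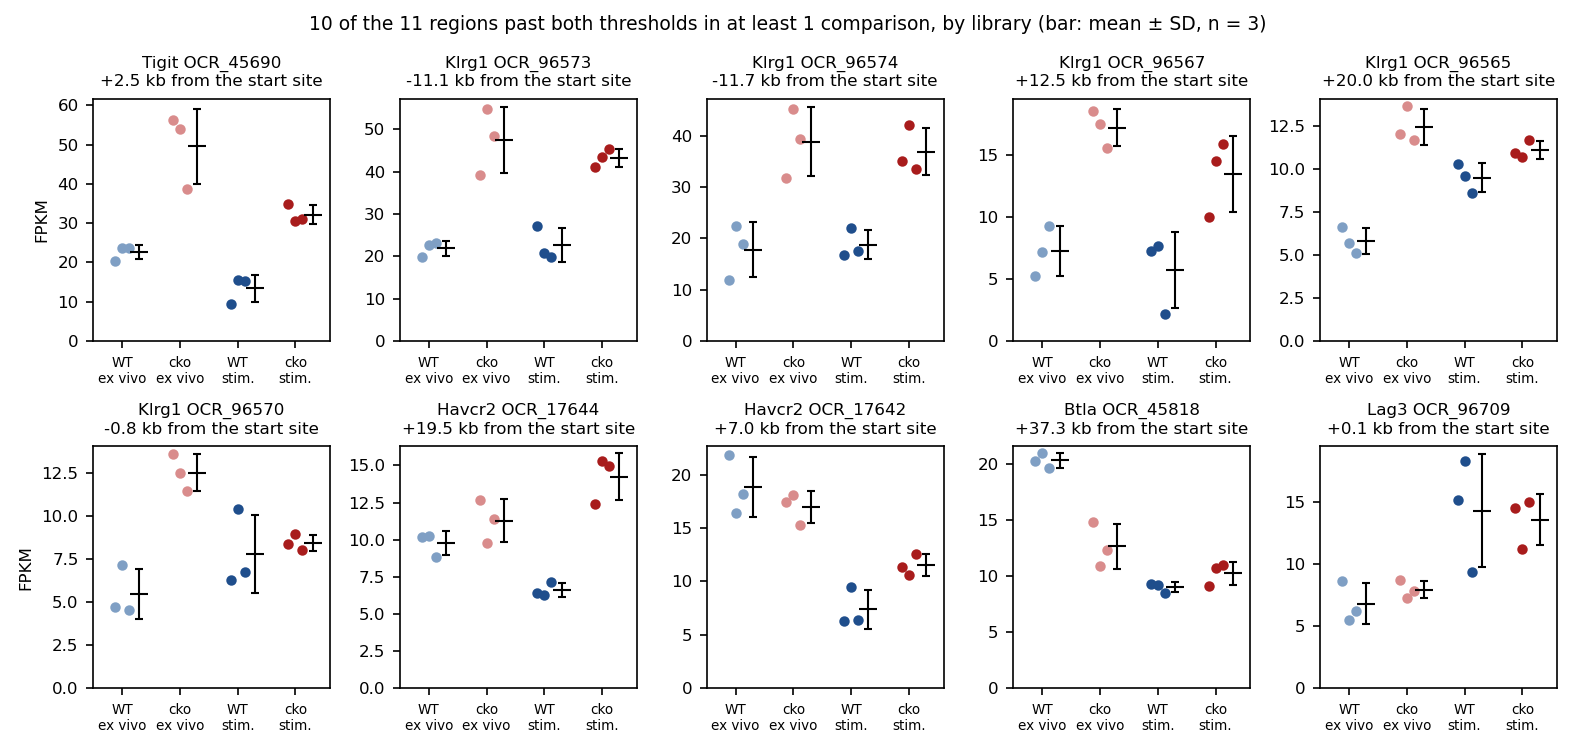
FPKM (y axis, from 0) of 10 of the 11 regions that passed both thresholds in at least 1 comparison, in the 12 libraries (points) by group (x axis), with the mean ± SD (n = 3) as bars. In Tigit OCR_45690 and Klrg1 OCR_96573, OCR_96574 and OCR_96567 both Ikzf1-cko groups lie above both WT groups, and in Btla OCR_45818 WT ex vivo lies above the other 3 groups.

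At Tigit, 1 of 10 tested regions, in an intron, differed between the genotypes ex vivo. OCR_45690, 2.46 kb inside the gene, read 20.5, 23.8 and 23.7 FPKM in WT ex vivo, 56.2, 53.9 and 38.6 in Ikzf1-cko ex vivo, 9.38, 15.5 and 15.2 in WT stimulated and 34.9, 30.6 and 31.1 in Ikzf1-cko stimulated. It was higher in Ikzf1-cko without overlap in both states, by a log2 fold change of 1.13 ± 0.15 ex vivo (FDR = 1.8e-06) and 1.28 ± 0.19 in stimulated cells (FDR = 4.0e-06). It fell on stimulation in both genotypes, by 0.79 ± 0.21 on the log2 scale in WT (FDR = 0.0027) and by 0.64 ± 0.13 in Ikzf1-cko (FDR = 0.00058), and the interaction was 0.15 ± 0.25 (FDR = 0.74). With loess normalization the genotype differences were 1.14 and 1.16, so this region moved alike under both scalings.

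The region over the Tigit start site, OCR_45691, was the strongest of the locus and behaved otherwise. It read 100.4, 88.9 and 101 FPKM in WT ex vivo, 98.9, 99.7 and 78.9 in Ikzf1-cko ex vivo, 53.1, 62.6 and 56.3 in WT stimulated and 89.5, 84.0 and 83.7 in Ikzf1-cko stimulated. Ex vivo the genotypes overlapped (log2 fold change -0.06 ± 0.08, FDR = 0.62, and -0.20 with FDR = 0.047 after loess normalization), and WT stimulated Treg alone lay below the other groups. Stimulation lowered it in WT by 0.75 ± 0.09 on the log2 scale (FDR = 2.1e-07, and by 0.49 after loess normalization), against a log2 fold change of -0.11 ± 0.08 in Ikzf1-cko (FDR = 0.31), and the interaction was 0.64 ± 0.12 (FDR = 0.0016). After loess normalization the interaction was 0.41 (FDR = 0.033), whereas the difference between genotypes in stimulated cells fell from 0.58 ± 0.09 (FDR = 8.9e-06) to 0.20 (FDR = 0.068). The neighbour OCR_45692, 0.82 kb upstream, and the intronic OCR_45688, 8.91 kb inside the gene, which were singled out after their values were seen, had interactions of 0.74 ± 0.17 and 0.88 ± 0.19 (FDR = 0.0072 and 0.0047), and of 0.54 and 0.72 after loess normalization (FDR = 0.049 and 0.027).

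**Figure D3:**
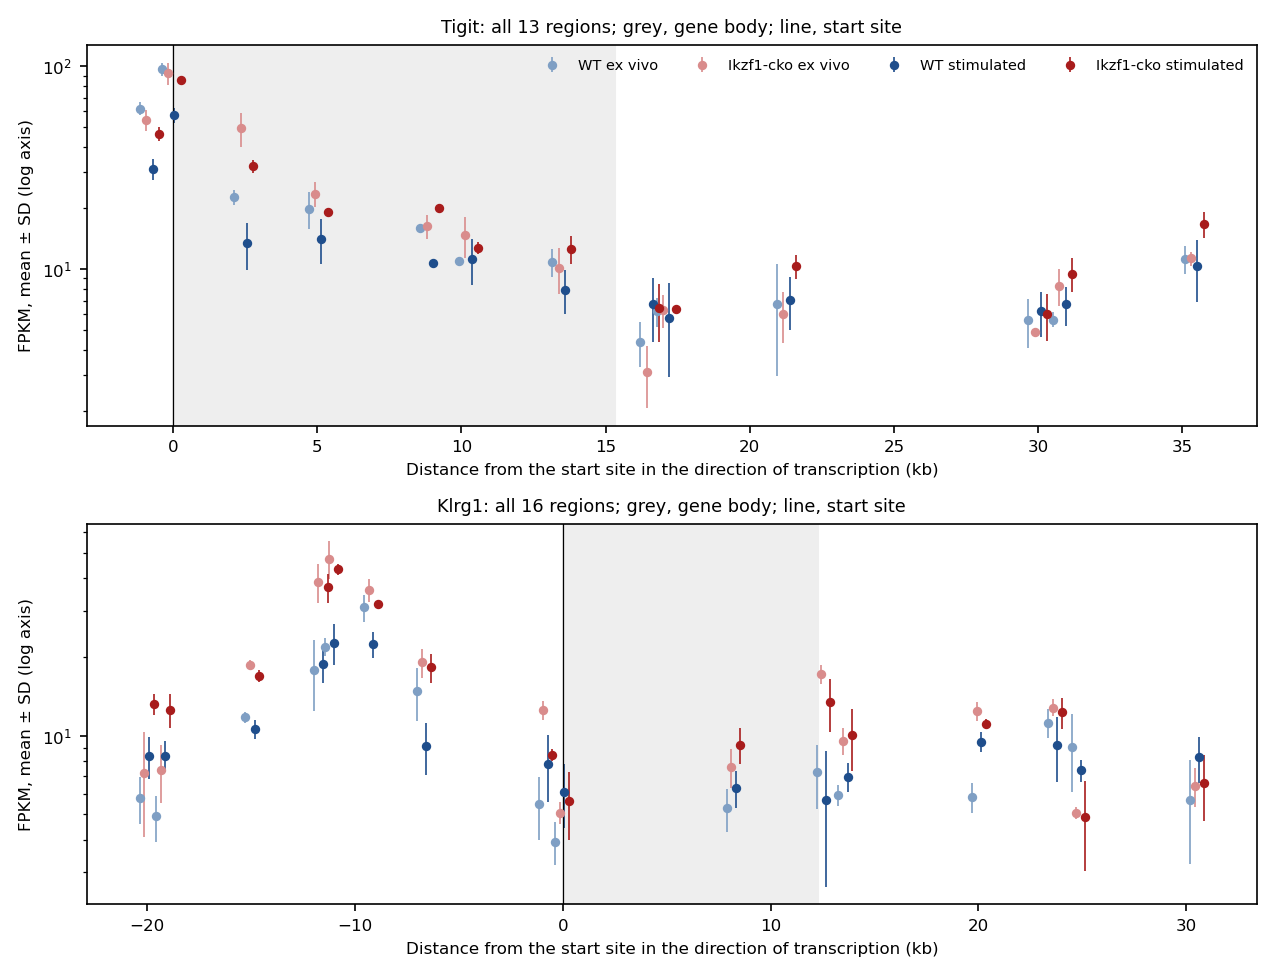
Group means ± SD (n = 3) in FPKM (y axis, log scale) of every region at Tigit and Klrg1 against its distance from the start site in kb (x axis), for the 4 groups by colour. At Tigit the start site is the strongest region and 1 intronic region differs between the genotypes past both thresholds in both states. At Klrg1 the start site is weak and the regions past both thresholds lie on both sides of the gene.

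In stimulated cells all 7 loci differed between the genotypes, in a comparison in which many did. Tigit (log2 fold change 0.60 ± 0.09), Klrg1 (0.54 ± 0.06), Btla (0.44 ± 0.09), Havcr2 (0.41 ± 0.07), Cd200 (0.34 ± 0.12) and Lag3 (0.29 ± 0.06) were higher in Ikzf1-cko and Cd160 was lower (-0.33 ± 0.10), against 35.3% of all loci higher and 27.1% lower. Of the 64 regions, 27 were higher and 2 lower at an FDR under 0.05, against 20.4% and 30.7% of all regions, and the median log2 fold change was 0.38 against -0.11 over all. This background differs in signal strength: 11 of the 64 were among the strongest 20% of regions and 1 among the weakest 20%. The median log2 fold change was 0.32 in the strongest 20% and -1.48 in the weakest 20%. Past both thresholds were 3 regions, Tigit OCR_45690, Klrg1 OCR_96567 and Havcr2 OCR_17644, against 21.3% of all regions, and there were 5 without WT stimulated replicate 1 or without Ikzf1-cko stimulated replicate 1. There were 7 with DESeq2 and 7 with loess normalization, which added Tigit OCR_45681 (1.03), Klrg1 OCR_96566 (1.15) and OCR_96571 (1.35) and Cd200 OCR_45837 (1.06), named here after their values were seen. After loess normalization 21 regions were higher and 1 lower at an FDR under 0.05, against 8918 and 10528 of all 69957 regions. Among the loci Tigit (0.34), Klrg1 (0.30), Havcr2 (0.21), Btla (0.20) and Cd160 (-0.29) still passed, whereas Lag3 (0.00, FDR = 0.97) and Cd200 (0.14, FDR = 0.26) did not. Of all 27532 loci, 6417 were higher and 6983 lower under this scaling. The Cd200 locus also lost its call without WT stimulated replicate 1 (0.23, FDR = 0.11) or replicate 3 (0.31, FDR = 0.063), and without Ikzf1-cko stimulated replicate 2 (0.28, FDR = 0.077) or replicate 3 (0.32, FDR = 0.053).

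Stimulation lowered the loci of Tigit by 0.58 ± 0.09, Btla by 0.44 ± 0.09, Cd200 by 0.43 ± 0.12 and Havcr2 by 0.38 ± 0.07 on the log2 scale in WT Treg and raised none of the 7, against 32.5% of all loci higher and 27.4% lower. Of the 64 regions 6 rose and 16 fell, against 26.9% and 20.7% of all, and 4 passed both thresholds, 2 in each direction, against 20% of all. With loess normalization 8 rose and 12 fell, against 11231 and 10454 of all 69957 regions. With library totals the median log2 fold change was -0.25 in the strongest 20% of regions and 1.40 in the weakest 20%. In Ikzf1-cko Treg 11 regions rose and 7 fell, against 12% and 11.5%, and none passed both thresholds by edgeR, against 3.65% of all, with 25 regions at an unadjusted p under 0.05 and likewise none by DESeq2. Only the Lag3 locus passed there, at 0.21 ± 0.06 (FDR = 0.010), against 21.8% of all loci higher and 9.57% lower. With TMM factors it did not pass, and Klrg1 and Cd160 were the 2 loci that fell. The start sites of effector Treg genes were lower in WT as well, with summed levels of 107 to 132 FPKM in WT stimulated against 157 to 176 in Ikzf1-cko stimulated, and so were those of the Treg list (4 of 5 genes), with 72.9 to 86.3 against 102 to 110. Over whole windows in WT, 27 of 64 effector regions and 44 of 117 Treg regions fell on stimulation and 2 and 3 rose, against 20.7% and 26.9% of all regions. In Ikzf1-cko, 19 of the effector and 26 of the Treg regions fell and 6 of each rose, against 11.5% and 12% of all. The part of these shifts in the values of the 7 genes was not tested.

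**Figure D4:**
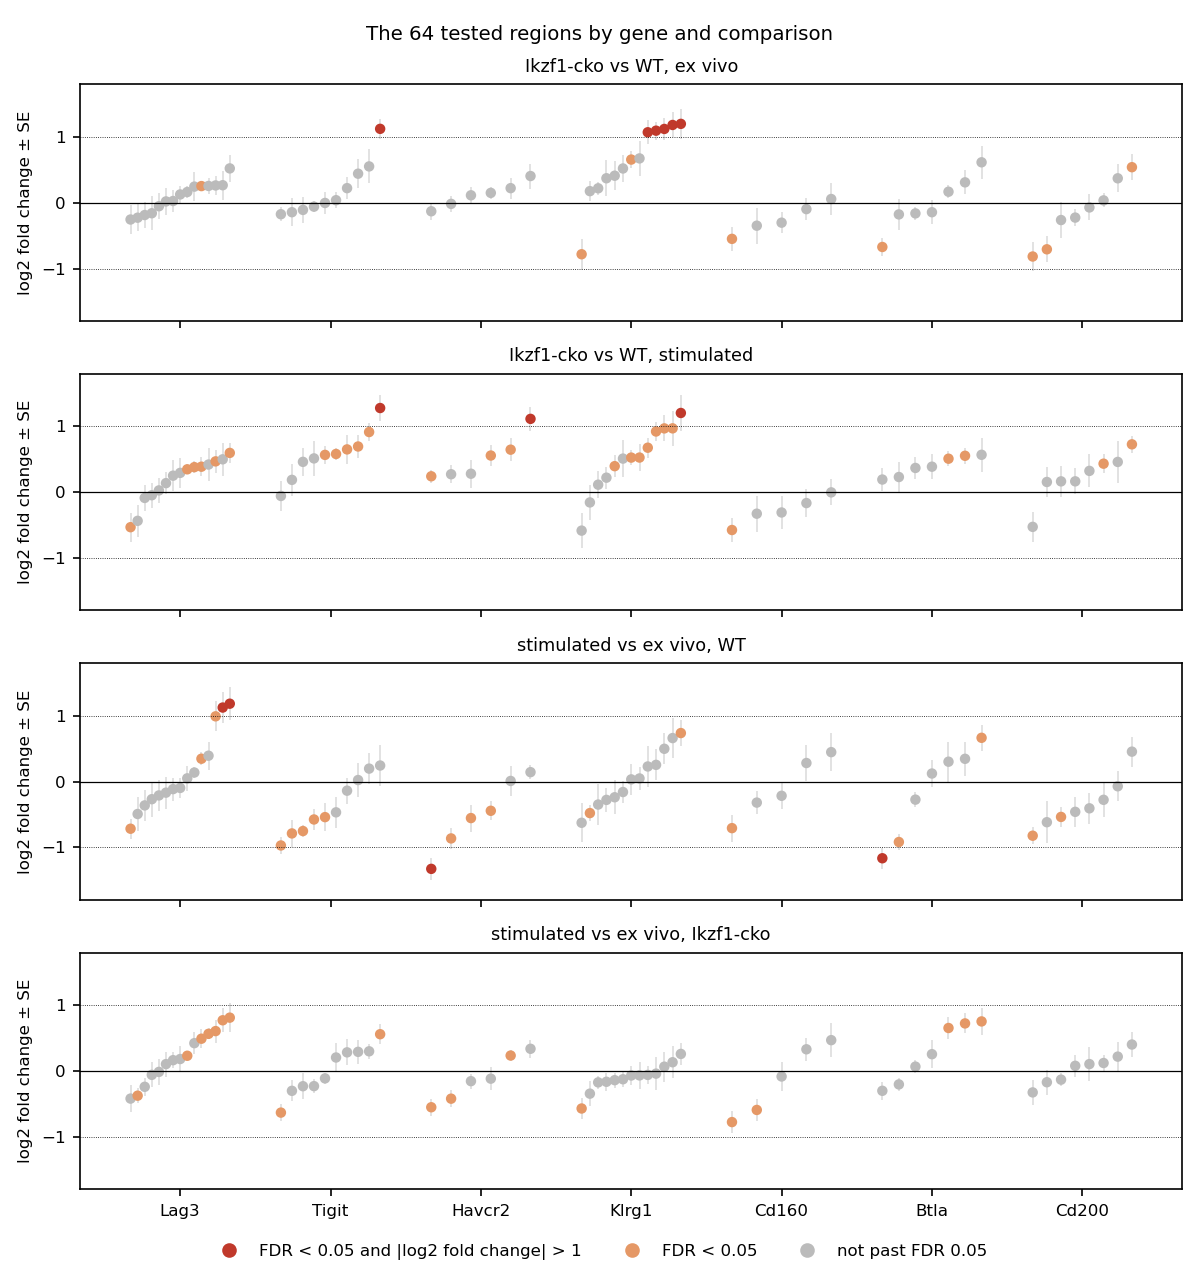
Log2 fold change ± SE (y axis) of the 64 tested regions, grouped by gene along the x axis, in the 4 comparisons (panels), with colour for regions past both thresholds, past an FDR of 0.05 only, or neither, and dotted lines at a log2 fold change of 1 and -1. Ex vivo the coloured points gather at Klrg1, and in stimulated cells most Tigit, Havcr2, Klrg1 and Btla points lie above 0 and all 5 Cd160 points below.

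At Havcr2, 2 intronic regions stood out. OCR_17644, 19.5 kb inside the gene, read 10.2, 10.2 and 8.83 FPKM in WT ex vivo, 12.7, 9.79 and 11.4 in Ikzf1-cko ex vivo, 6.40, 6.28 and 7.15 in WT stimulated and 12.4, 15.3 and 15.0 in Ikzf1-cko stimulated. The genotypes overlapped ex vivo and were apart in stimulated cells, with a log2 fold change of 1.12 ± 0.18 (FDR = 1.7e-05), and 1.14 after loess normalization. OCR_17642, 6.97 kb inside the gene, read 21.9, 16.4 and 18.2 FPKM in WT ex vivo, 17.5, 18.1 and 15.3 in Ikzf1-cko ex vivo, 6.27, 9.47 and 6.43 in WT stimulated and 11.4, 10.7 and 12.6 in Ikzf1-cko stimulated. It fell on stimulation in both genotypes, by 1.33 ± 0.17 on the log2 scale in WT (FDR = 2.5e-07) and by 0.55 ± 0.13 in Ikzf1-cko (FDR = 0.0018), with an interaction of 0.78 ± 0.21 (FDR = 0.023). That interaction lost its call after loess normalization (0.62, FDR = 0.080) and without WT ex vivo replicate 1 or 3, WT stimulated replicate 1 or 3, or Ikzf1-cko stimulated replicate 3 (0.66 to 0.79, FDR = 0.051 to 0.11). The start site, OCR_17641, at group means of 7.36 to 9.86 FPKM, passed in no comparison. Without the regions over the start sites of Med7 and 2310031A07Rik, an alternative chosen after seeing the data, the Havcr2 locus differed more, by 0.54 ± 0.09 between genotypes in stimulated cells and -0.71 ± 0.09 on stimulation of WT Treg.

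At Btla, which like Cd200 and Tigit lies on chromosome 16, the start site region OCR_45810 was the strongest by reads, with 25.7 ± 2.98 FPKM in WT ex vivo, 29.1 ± 1.79 in Ikzf1-cko ex vivo, 21.5 ± 5.0 in WT stimulated and 30.5 ± 2.14 in Ikzf1-cko stimulated (SD, n = 3). It differed between the genotypes in stimulated cells only (0.51 ± 0.11, FDR = 0.00036), and by 0.16 (FDR = 0.21) after loess normalization. OCR_45818, 37.3 kb from the start site and beyond the gene, went the other way ex vivo. It read 20.3, 20.9 and 19.6 FPKM in WT ex vivo, 14.8, 10.9 and 12.3 in Ikzf1-cko ex vivo, 9.31, 9.19 and 8.47 in WT stimulated and 9.09, 10.7 and 10.97 in Ikzf1-cko stimulated. The WT ex vivo libraries lay above all others: the region was lower in Ikzf1-cko ex vivo by a log2 fold change of -0.67 ± 0.13 (FDR = 0.00037), and it fell by 1.17 ± 0.16 on stimulation of WT Treg (FDR = 1.1e-06) against -0.30 ± 0.14 in Ikzf1-cko (FDR = 0.10). After loess normalization the fall in WT was 0.98 on the log2 scale, just short of the fold threshold.

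The start site region of Cd200, OCR_45848, resembled that of Tigit, with 32.1 ± 4.87 FPKM in WT ex vivo, 33.4 ± 2.96 in Ikzf1-cko ex vivo, 18.4 ± 2.33 in WT stimulated and 30.4 ± 4.39 in Ikzf1-cko stimulated (SD, n = 3). It fell by 0.82 ± 0.13 on the log2 scale on stimulation of WT Treg (FDR = 8.7e-06, and by 0.59 after loess normalization), and was higher in Ikzf1-cko in stimulated cells by 0.73 ± 0.13 (FDR = 2.9e-05) and by 0.41 after loess normalization (FDR = 0.0058). No Cd200 region passed both thresholds in any comparison with library totals as scaling. With loess normalization OCR_45837, 29.2 kb from the start site, passed both in stimulated cells (1.06, FDR = 0.0097) and on stimulation of WT Treg (-1.08, FDR = 0.0090), against 0.46 ± 0.31 (FDR = 0.23) and -0.62 ± 0.32 (FDR = 0.11) without it.

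At Lag3, 4 of 15 tested regions rose and 1 fell on stimulation of WT Treg, and 6 rose and 1 fell in Ikzf1-cko. The 15 include the regions over the start sites of Cd4, Ptms and Mlf2. OCR_96713 over the Mlf2 start site was among those that rose in Ikzf1-cko (0.23). OCR_96711 over the Ptms start site rose by 0.58 in both genotypes after loess normalization (FDR = 1.2e-05 in WT and 3.3e-07 in Ikzf1-cko). Of all regions, 26.9% rose and 20.7% fell in WT, so the share that rose was near the background there, and 12% rose and 11.5% fell in Ikzf1-cko. The Lag3 start site region, OCR_96709, read 8.67, 5.53 and 6.21 FPKM in WT ex vivo, 8.70, 7.28 and 7.85 in Ikzf1-cko ex vivo, 15.2, 18.3 and 9.37 in WT stimulated and 14.5, 11.2 and 15.0 in Ikzf1-cko stimulated. In both genotypes the stimulated libraries lay above the ex vivo libraries, by a log2 fold change of 1.13 ± 0.23 in WT (FDR = 0.00025, and 1.17 after loess normalization) and 0.77 ± 0.18 in Ikzf1-cko (FDR = 0.0023), and the genotypes overlapped in each state. Downstream, OCR_96705, 9.67 kb from the start site, read 10.6, 8.65 and 4.68 FPKM in WT ex vivo, 6.38, 7.67 and 6.44 in Ikzf1-cko ex vivo, 15.8, 20.2 and 16.2 in WT stimulated and 13.1, 9.97 and 12.9 in Ikzf1-cko stimulated. It rose in both genotypes, by a log2 fold change of 1.18 ± 0.25 in WT (FDR = 0.00041, and 1.08 after loess normalization) and 0.81 ± 0.22 in Ikzf1-cko (FDR = 0.0078), and was lower in Ikzf1-cko stimulated than in WT stimulated Treg (-0.53 ± 0.22, FDR = 0.045, and -0.29 with FDR = 0.34 after loess normalization). That last call was also lost without any 1 of the 3 WT stimulated libraries or without Ikzf1-cko stimulated replicate 2 or 3 (-0.61 to -0.41, FDR = 0.054 to 0.19). The whole locus changed by 0.10 ± 0.06 on stimulation of WT Treg (FDR = 0.16), and by 0.33 (FDR = 2.6e-05) after loess normalization. Without the regions over the start sites of Cd4, Ptms and Mlf2 its log2 fold change between genotypes was 0.12 (FDR = 0.30) ex vivo and 0.21 (FDR = 0.059) in stimulated cells, and 0.09 (FDR = 0.44) on stimulation of Ikzf1-cko Treg. OCR_96706, over an exon of Lag3 and named after its values were seen, was higher in Ikzf1-cko in stimulated cells (0.39 ± 0.14, FDR = 0.022, and 0.21 with FDR = 0.27 after loess normalization). The ex vivo difference of the whole locus, 0.18 ± 0.06 (FDR = 0.040), also lost its call without WT ex vivo replicate 1 (0.15, FDR = 0.15) or 2 (0.18, FDR = 0.11), or without Ikzf1-cko ex vivo replicate 1 (0.20, FDR = 0.062) or 2 (0.14, FDR = 0.17).

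Cd160 was the only one of the 7 loci lower in Ikzf1-cko Treg in both states. It stood at 10.1, 10.8 and 10.9 FPKM in WT ex vivo, 8.98, 9.54 and 8.18 in Ikzf1-cko ex vivo, 9.79, 9.61 and 9.39 in WT stimulated and 8.33, 7.73 and 6.91 in Ikzf1-cko stimulated. The genotypes were apart in both states, by a log2 fold change of -0.25 ± 0.09 ex vivo (FDR = 0.049) and -0.33 ± 0.10 in stimulated cells (FDR = 0.0068). The ex vivo call was lost on leaving out any 1 of its 6 libraries (FDR = 0.068 to 0.14). The strongest region, the intronic OCR_73321, read 16.8 ± 2.40 FPKM in WT ex vivo, 13.7 ± 2.63 in Ikzf1-cko ex vivo, 13.5 ± 0.70 in WT stimulated and 9.10 ± 0.44 in Ikzf1-cko stimulated (SD, n = 3), and was lower in Ikzf1-cko in stimulated cells (-0.58 ± 0.19, FDR = 0.012, and FDR = 0.053 without WT stimulated replicate 1). OCR_73324, over an exon 14.7 kb inside the gene and nearest to the start site, was too weak to be tested. Cd160 is best known from CD8 T and NK cells. Open chromatin over the start sites of Cd8a and Cd8b1, the 2 CD8 markers, was likewise lower in Ikzf1-cko in both states. On stimulation of Ikzf1-cko Treg, Cd8b1 changed by a log2 fold change of 0.09 (FDR = 0.59), and Cd8a was too weak to be tested. The Cd160 locus changed there by -0.22 ± 0.09 (FDR = 0.067). The CD8 markers summed to 20.7 to 24.2 FPKM in WT ex vivo, 10.8 to 14.6 in Ikzf1-cko ex vivo, 19.98 to 23.4 in WT stimulated and 14.7 to 16.1 in Ikzf1-cko stimulated. Of the NK cell markers, Klrb1c and Eomes summed to 15.0 to 17.1, 11.9 to 15.5, 16.8 to 18.0 and 12.1 to 16.4 FPKM in the same order. Over whole windows, none of 6 CD8 regions were higher and 3 were lower ex vivo, and none and 4 in stimulated cells, whereas 1 of 18 NK regions was higher ex vivo and 10 in stimulated cells, and none were lower in either. Of all regions, 8.78% were higher and 12.7% lower ex vivo, and 20.4% and 30.7% in stimulated cells. The part of CD8 and NK cells in the Cd160 result was not tested.

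The response to stimulation itself differed between the genotypes at 3 loci, Tigit (interaction 0.54 ± 0.12, FDR = 0.0086), Btla (0.52 ± 0.13, FDR = 0.013) and Havcr2 (0.34 ± 0.09, FDR = 0.023), against 16.6% of all loci. Each was a fall in WT Treg and a log2 fold change between -0.05 and 0.08 in Ikzf1-cko Treg. Cd200 had a like interaction of 0.45 ± 0.16 that missed the threshold (FDR = 0.059), while Klrg1 (-0.03 ± 0.09) and Lag3 (0.11 ± 0.08) showed little. Havcr2 lost its call without WT ex vivo replicate 2 (0.31, FDR = 0.061), WT stimulated replicate 1 (0.32, FDR = 0.066) or 3 (0.28, FDR = 0.064), or Ikzf1-cko stimulated replicate 3 (0.31, FDR = 0.075), and after loess normalization (0.21, FDR = 0.11). Among regions, 9 had a positive and 2 a negative interaction at an FDR under 0.05, against 5.66% and 1.82% of all (8 and none with DESeq2), and 1 passed both thresholds, against 1.98%. None did without WT ex vivo replicate 1 or 3 or Ikzf1-cko stimulated replicate 3, and 3 did without Ikzf1-cko ex vivo replicate 1. Over all regions DESeq2 gave 2872 positive and 151 negative interactions at an FDR under 0.05. With library totals the median interaction was 0.20 in the strongest 20% of regions and -0.77 in the weakest 20%.

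**Figure D5:**
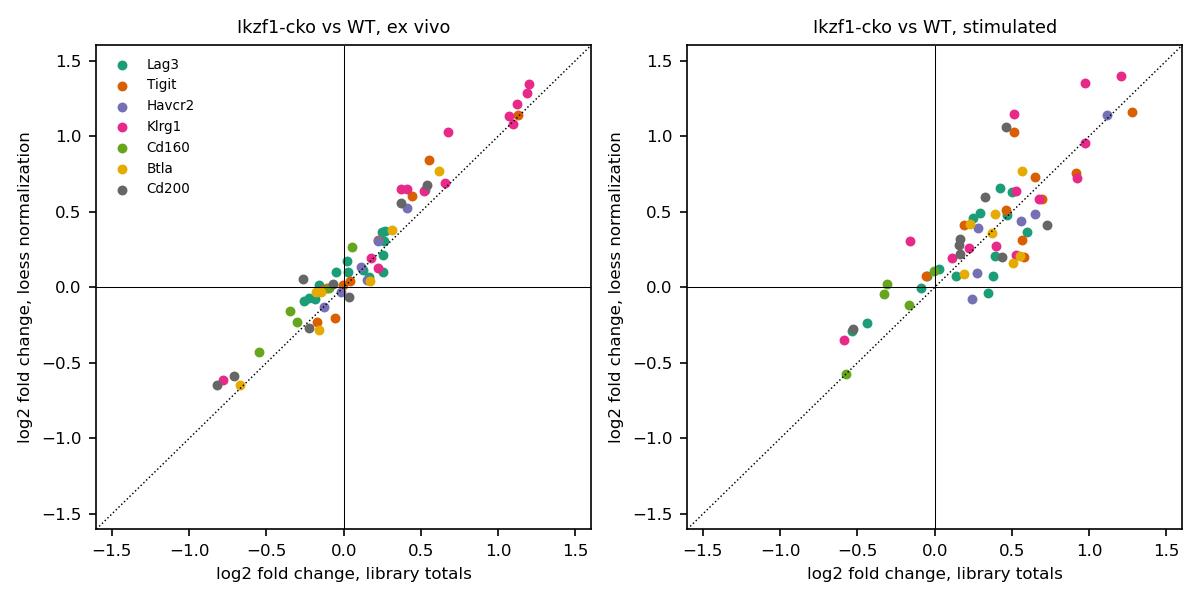
Log2 fold change of the 64 tested regions after loess normalization (y axis) against that with library totals as scaling (x axis), by comparison (panels), with the dotted line of equality. Ex vivo some values leave the line, as at Klrg1 OCR_96566 (0.68 to 1.03), Cd200 OCR_45837 (-0.26 to 0.06) and Tigit OCR_45691 (-0.06 to -0.20). In stimulated cells the start site regions of Tigit, Btla and Cd200 drop below the line while Tigit OCR_45690 and Havcr2 OCR_17644 stay above a log2 fold change of 1.

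Across the 12 libraries, log2 locus levels of Btla and Cd200 (Pearson r = 0.94), Tigit and Btla (0.90) and Tigit and Havcr2 (0.89) went together, Klrg1 went with Lag3 (0.69) and Havcr2 (0.68), and Cd160 went against Lag3 (-0.83). These 12 points share 4 groups, depth and the distinct WT stimulated libraries, and the values are descriptions. By the same measure over the 12 libraries, the genes most like each locus, outside 1 Mb of it, were Htra2 and Loxl3 for Lag3 (0.99 each), Gm17384 and Nt5e for Tigit (0.98 each), Ppp2r5a and Pfkfb3 for Havcr2 (0.97 each), and Plekha3 and Fkbp7 for Klrg1 (0.98 each). For the others they were 1700017J07Rik and Gm14260 for Cd160 (0.97 each), Frmd6 and Hsd17b4 for Btla (0.98 each), and P2ry14 for Cd200 (0.96). The like genes of Lag3, of Klrg1 and of Cd160 lie on 1 chromosome each, and those of Cd160 had the same r. Windows of neighbouring genes share regions, so such pairs need not be separate measurements. Nt5e encodes an ectoenzyme that makes adenosine on the surface of Treg.

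The binding partners and signaling molecules of these receptors were followed by lists of genes. The 14 ligands and partners, among them Pvr, the nectins, galectins, Cdh1, Tnfrsf14 and Cd200r1, had 64 tested regions, of which 5 were higher and 6 lower in Ikzf1-cko ex vivo and 17 and 7 in stimulated cells, with 1 lower region past both thresholds in each. The shares of all regions to set beside these and the next counts are 8.78% higher and 12.7% lower ex vivo (4.63% past both thresholds in either direction) and 20.4% and 30.7% in stimulated cells (21.3%), and for the interaction 5.66% positive and 1.82% negative (1.98%). The 10 related receptors, among them Cd226, Cd96, Pdcd1 and Lair1, had 84 tested regions. Ex vivo 13 were higher and 10 lower, and in stimulated cells 31 and 4, with 4 higher and 1 lower past both thresholds, and the median log2 fold change there was 0.31. Their interactions were positive in 15 regions and negative in none, 6 of them past both thresholds. The signaling list, with Ptpn6, Ptpn11, Inpp5d, Grb2 and Fyn found of 6 genes, had 73 tested regions, 15 higher and 1 lower ex vivo and 23 and 1 in stimulated cells, and no interaction passed. None of the start sites in these 3 lists passed both thresholds in any comparison.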

How the data were processed

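ATAC-seq was performed on 3 libraries for each of 4 groups, assigned by the sample labels. Per the methods and the labels' processing notes, which name bcl2fastq, Bowtie2, MACS2 and mm9, the authors aligned paired reads, removed duplicates, called peaks per replicate and combined the peaks of all libraries. Although the methods name hg19 for alignment, the deposited regions lie on mouse chromosomes, within mm9 lengths except for 1. The authors deposited read counts per region and library, without normalization, together with FPKM values, which are the counts scaled by region length and library total (largest difference from recomputed values 4.32e-12). The further table of the authors' own comparisons (log2 fold change, F score, p-value and FDR) was not used.

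Counts were fitted by the quasi-likelihood method of edgeR 4.0.16 (R 4.3.3), with Benjamini-Hochberg adjustment over all features, as 4 group means over 12 libraries, with library totals as the scaling. Regions needed at least 3.6 CPM in at least 3 libraries (69957 regions, 24.4 prior degrees of freedom), and 27532 loci, sums over the gene body and 20 kb on each side, were fitted likewise (8.23 prior degrees of freedom). Standard errors were derived from the F statistics. The background normalization of the study needs reads outside the regions and was not possible. Genes came from the GENCODE vM1 annotation of mm9.

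The members and gene lists were chosen with earlier results of these data known. Lists covered ligands and partners, related receptors and signaling, and markers of Treg, effector Treg, CD8 T cells, NK cells, B cells and myeloid cells. Regions were named where they lay over or nearest to a start site, had the highest mean CPM of their gene, or passed both thresholds (others are said to be chosen after their values were seen), and 2 like genes per locus were named by Pearson correlation. A further marker list, 1 marker and 1 like gene are not reported here. Alternatives were TMM, DESeq2 1.42.0, loess normalization, other filters, limma 3.58.1 on log2(FPKM + 1) and log2(FPKM + 0.1), compared libraries alone, thinned counts, a replicate block over all libraries or within genotype, each library left out, no fold threshold, and windows of 5 kb and 50 kb, with 1 more, no regions over other genes' start sites, added after seeing the data. Scripts were checked on simulated counts. The methods call the 3 libraries of a group biological replicates, and whether each came from 1 mouse or from pooled mice is not given in the sources used here. Other steps used Python 3.11.15, pandas 2.3.3, NumPy 2.4.6 and Matplotlib 3.10.9.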

Additional observations from a re-analysis of the deposited data

Results flagged for a closer look

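The effect of stimulation differed between WT and Ikzf1-cko Treg, by the interaction term of edgeR's quasi-likelihood test at an FDR under 0.05, in 11 of the 64 regions and at 3 loci. It was positive, with a fall in WT Treg and a higher log2 fold change in Ikzf1-cko Treg, at Tigit OCR_45688 (0.88), OCR_45691 (0.64) and OCR_45692 (0.74), at Havcr2 OCR_17642 (0.78) and OCR_17644 (0.89), at Btla OCR_45816 (0.71) and OCR_45818 (0.86), and at Cd200 OCR_45841 (0.66) and OCR_45848 (0.69), on the log2 scale. It was negative at Klrg1 OCR_96565 (-0.90) and OCR_96570 (-1.07), where the genotypes differed ex vivo and less so after stimulation. The loci were those of Tigit (0.54), Havcr2 (0.34) and Btla (0.52). Leaving out single libraries ended the call at Havcr2 OCR_17642 (WT ex vivo replicate 1 or 3, WT stimulated 1 or 3, Ikzf1-cko stimulated 3; 0.66 to 0.79), Havcr2 OCR_17644 (WT ex vivo 2, Ikzf1-cko ex vivo 2, WT stimulated 1, Ikzf1-cko stimulated 2 or 3; 0.80 to 0.87) and Cd200 OCR_45841 (WT ex vivo 2 or 3, Ikzf1-cko ex vivo 3, WT stimulated 1, Ikzf1-cko stimulated 2 or 3; 0.46 to 0.66). It was also lost at Cd200 OCR_45848 without WT ex vivo 3 (0.59), at Klrg1 OCR_96565 without WT ex vivo 3 or WT stimulated 1 (-0.81 and -0.84), at Klrg1 OCR_96570 without WT ex vivo 3, WT stimulated 2 or Ikzf1-cko stimulated 3 (-0.92, -0.81 and -1.03) and at the Havcr2 locus without WT ex vivo 2, WT stimulated 1 or 3, or Ikzf1-cko stimulated 3 (0.28 to 0.32). After loess normalization 5 regions had a positive and 2 a negative interaction at that FDR, against 1463 and 1079 of all 69957 regions. The WT stimulated libraries, which stood apart from the others in their replicate correlations and in the share of reads in strong regions, enter each of these values, and the part of that shift in them was not tested.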

How the results depend on the processing

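Of 1345 alternative values for 78 results on named regions and loci, 1188 kept their direction and side of the threshold, 155 lost their FDR under 0.05 and 2 reversed, both in the comparison of genotypes in stimulated cells with loess normalization: Havcr2 OCR_17637 over the Med7 start site (0.24 to -0.078) and Lag3 OCR_96713 over the Mlf2 start site (0.35 to -0.039). Values were lost most often with loess normalization (22 of 78) and on leaving out a library (70 of 552), and 8 with DESeq2, 5 with TMM and 3 with a replicate block, either over all libraries or within genotype. The block within genotype was fitted only for the effects of stimulation and the interaction. The comparisons of stimulation were fitted without pairing, although the sorted cells were divided between the states. Correlations of deviations between libraries of the same replicate number were -0.36 to 0.28, which with 3 libraries per group cannot show whether they were paired. With the replicate block the counts of regions and loci past the thresholds were as without it (6, 3, 4, 0 and 1 regions and 3, 7, 4 and 1 loci). It ended the calls of Havcr2 OCR_17637 on stimulation of Ikzf1-cko (0.23, FDR = 0.060) and Lag3 OCR_96705 in stimulated cells (-0.52, FDR = 0.057). Of the 12 libraries, 3 correlated best with a library of their own number.

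The 6 regions past both thresholds ex vivo became 3 in a 5 kb window and 14 with no fold threshold. The 3 in stimulated cells became 5 with TMM, 7 with DESeq2, 7 with loess normalization, 6 in a 50 kb window and 29 with no fold threshold. The 4 on stimulation of WT became 2 with the filter in all libraries and 22 with no fold threshold, and the 0 on stimulation of Ikzf1-cko became 2 without a filter, 1 with thinned counts, 1 in a 50 kb window and 18 with no fold threshold. The 1 interaction became 0 with DESeq2, with the filter in all libraries and with limma at either pseudocount, 2 with thinned counts and 11 with no fold threshold. The 3 loci ex vivo became 1 with loess normalization, and the 1 locus on stimulation of Ikzf1-cko became 2 with TMM, loess normalization or a 50 kb window, 3 with DESeq2, and 0 with thinned counts or without the regions over other genes' start sites. On leaving out 1 library the counts ranged from 4 to 7 for regions ex vivo, from 3 to 5 for regions in stimulated cells, from 4 to 6 on stimulation of WT, 0 in each on stimulation of Ikzf1-cko, from 0 to 3 for the interaction, from 1 to 2 for loci ex vivo, from 6 to 7 for loci in stimulated cells, 4 in each for loci on stimulation of WT and from 1 to 2 for loci on stimulation of Ikzf1-cko. The causes were not tested. Depth limits the weak regions: 64 of the 84 regions passed the count filter, and the weaker ones were tested only without it.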
